A study of Mus musculus with 12 samples.

Results

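Liver RNA of mice lacking Dscr-1 was compared with liver RNA of mice carrying it, across 8 of the 12 arrays of the series. The 4 arrays lacking Dscr-1 came from 2 Dscr-1-KO mice and 2 Dscr-1;ApoE-DKO mice, and the 4 arrays with Dscr-1 came from 2 wild type (WT) mice and 2 ApoE-KO mice. They were chosen by these genotype labels and not by any measured value. Below, the knockouts are called Dscr-1 null and ApoE null, and the mice with both null alleles double null. All 8 were adult C57BL/6J mice, and 1 array was hybridised per mouse with total RNA of whole liver. The labels give every liver mouse 12 weeks of high-fat diet, whereas the text of the study describes these animals as kept on normal chow, so the diet is uncertain but is not given as different between genotypes. Sex is not given in the labels, and both null alleles are present in all cells of the animal, so that hepatocytes, Kupffer cells, endothelial cells and circulating cells all lack the gene. The remaining 4 arrays of the series are of aortic endothelial cells and were not used here.

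Dscr-1, now named Rcan1, encodes a protein that binds calcineurin, the calcium-dependent phosphatase that sends NFAT transcription factors to the nucleus. Rcan1 is itself an NFAT target, so the protein closes a feedback loop on calcineurin. Liver handles most of the cholesterol, triglyceride and glucose traffic of the body: SREBP2 drives sterol synthesis, PPAR-alpha drives fatty acid oxidation and ketone production in fasting, and FOXO1 together with CREB drives glucose output. ApoE is the ligand through which liver clears remnant lipoproteins, and mice without it accumulate cholesterol in plasma. Each comparison was therefore made with the ApoE genotype as a term of the model, and was also split by ApoE genotype.

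The signal of a probe set is the deposited MAS5 value, in which the trimmed mean of every array was set to 100. A difference is on the log2(signal + 16) scale, lacking minus with Dscr-1, so a positive value is higher without Dscr-1. The added 16 shrinks the difference of dim probe sets. Each gene was represented by the brightest of all its probe sets. It was tested if that probe set was above the array median on at least 2 of the 8 arrays, which gave 14758 genes. A dim gene could thus pass this filter only through the group in which it was high. Median signal was 44.7 on ApoE null replicate 1 and 32.2 to 37.6 on the other arrays, and the mean correlation of that array with the other liver arrays was 0.839, against 0.875 to 0.885 for the rest. Results that rest on it are therefore also given without it.

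The arrays carried a liver profile. Alb signal ranged from 27526.8 to 64005.7, Ttr from 35172.2 to 69693.7 and Apoa1 from 27581.1 to 34735.7 over the 8 arrays. Apoe signal was between 19937.4 and 21510.3 on the 4 arrays with an intact ApoE gene and between 79.8 and 305 on the 4 ApoE null and double null arrays, as labelled. Eif2s3y, a gene of the Y chromosome, gave 197.2 to 409.3 on all 8 arrays, and Xist gave 6.8 to 78.5. Rcan1 did not separate the groups. Its brighter probe set gave 210 and 133.7 on the WT arrays, 496.5 and 176.7 on the ApoE null arrays, 255.2 and 353.1 on the Dscr-1 null arrays and 491.5 and 209.5 on the double null arrays. The difference was 0.44 ± 0.41 (SE, n = 4 and 4 arrays; limma adjusted p = 0.99). The other probe set was dim, at 2.7 to 46.9. No source used here places these probe sets inside or outside the targeted exons, which leaves the Dscr-1 labels unchecked by them, and every direction below rests on the labels. As bulk RNA, these signals cannot tell fewer cells of a type from less RNA per cell.

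No gene passed an adjusted p of 0.05 by the moderated test of limma (0 of 14758, 0%), and the lowest adjusted p was 0.589. At an unadjusted p of 0.05, 669 genes passed (4.53%), of which 330 were higher (2.24%) and 339 lower (2.3%) without Dscr-1. This share is no larger than such a threshold passes by chance. The study counted genes more than 2-fold upregulated in the liver of each genotype. That criterion was applied here, with no test, to another comparison: the ratio of mean signals of the pooled 4 against 4 arrays, in both directions. By it, 586 genes were higher (3.97%) and 722 lower (4.89%). All 4 arrays lacking Dscr-1 lay above all 4 with it for 221 genes (1.5%) and below all 4 for 198 genes (1.34%). With a variance that follows signal level and a robust prior (limma trend and robust), 18 genes passed an adjusted p of 0.05 (0.122%), 15 higher and 3 lower. That setting was run as an alternative, and its count ran from 7 to 60 when single arrays were left out, and was 0 with a filter on 4 arrays or with the probe sets of a gene averaged. All 18 calls are lost there, and they are named below only as calls of that setting. The p-values measure the spread between these mice and arrays alone.

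**Figure D1:**
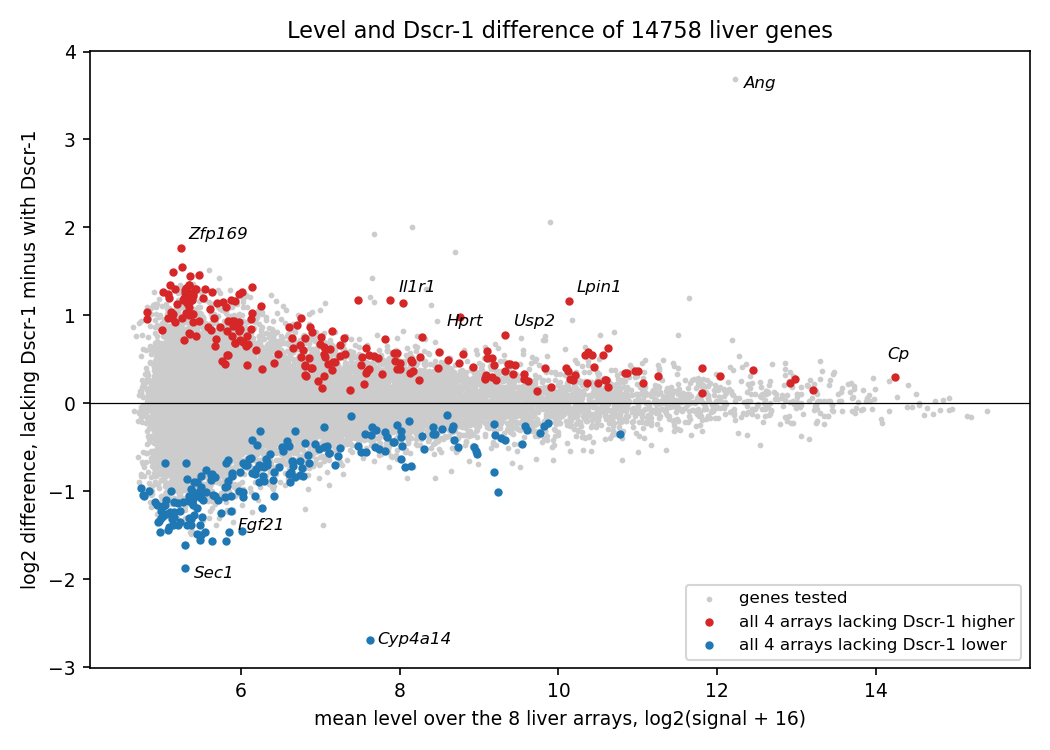
Each point is 1 of the 14758 genes tested, with mean log2(signal + 16) over the 8 liver arrays on the x axis and the log2 difference, lacking minus with Dscr-1, on the y axis; red and blue points are the 221 higher and 198 lower genes whose 4 against 4 arrays did not overlap. Under a level of 7, 117 red and 139 blue genes lie among 9043 tested, and at 10 and above 31 and 1 among 990. Lpin1 is the highest coloured gene at a level of 10 and above (1.16), and Ang (3.69) is grey because its groups overlapped.

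Lpin1 was the gene with the lowest adjusted p in the alternative test. It encodes lipin-1, a phosphatidate phosphatase of triglyceride synthesis that also acts as a coactivator of PPAR-alpha. Its signal was 1060.5 and 436.8 on the WT arrays and 902.8 and 687.4 on the ApoE null arrays. Without Dscr-1 it was 1651 and 1842.7 on the Dscr-1 null arrays and 1711.6 and 1460.2 on the double null arrays. The groups did not overlap, in either ApoE genotype. Mean signal was 771.9 ± 271 with and 1666 ± 159 without Dscr-1 (SD, n = 4 each), a ratio of 2.16. The difference was 1.16 ± 0.32 (SE, limma adjusted p = 0.717, adjusted p = 1.36e-06 with trend and robust variance), and was 1.33 in ApoE-intact and 0.99 in ApoE null liver. It ran from 0.88 to 1.38 when each array was left out in turn. The other probe set of Lpin1, which gave 330.6 to 689.3 with and 1074.1 to 1288.7 without Dscr-1, also did not overlap and differed by 1.26.

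The promoter window of Lpin1 is shown because this gene leads the comparison, that of Usp2 because all of its probe sets above the filter moved alike, and that of Fgf21 because it was the lowest gene with a window in the list of fatty acid oxidation and PPAR-alpha targets. Each holds the 250 bases before the first transcription start listed by RefSeq (GRCm38.p6), read 5′ to 3′ on the strand of the gene. Capitals mark GGAAA, the core recognised by NFAT, or its complement TTTCC. The Lpin1 window is chr12:16610967-16611216 on the minus strand, the Usp2 window chr9:44084670-44084919 on the plus strand and the Fgf21 window chr7:45615491-45615740 on the minus strand.
Lpin1: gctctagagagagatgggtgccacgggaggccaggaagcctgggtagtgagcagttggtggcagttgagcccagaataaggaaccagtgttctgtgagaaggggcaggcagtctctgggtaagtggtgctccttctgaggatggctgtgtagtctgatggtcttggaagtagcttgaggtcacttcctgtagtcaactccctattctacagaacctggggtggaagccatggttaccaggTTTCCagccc
Usp2: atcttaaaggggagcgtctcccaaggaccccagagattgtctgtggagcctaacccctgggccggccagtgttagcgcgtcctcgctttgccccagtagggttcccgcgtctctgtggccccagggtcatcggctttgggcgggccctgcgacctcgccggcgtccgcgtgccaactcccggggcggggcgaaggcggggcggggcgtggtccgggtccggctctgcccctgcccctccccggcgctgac
Fgf21: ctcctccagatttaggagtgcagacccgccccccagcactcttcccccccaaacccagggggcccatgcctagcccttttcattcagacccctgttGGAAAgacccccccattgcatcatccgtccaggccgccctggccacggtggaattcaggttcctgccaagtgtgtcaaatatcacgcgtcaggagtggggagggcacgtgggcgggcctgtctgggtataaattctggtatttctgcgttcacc

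The Lpin1 and Fgf21 windows each held 1 such core, and the Usp2 window held 0. The core is short and common, being present in the same window of 54.3% of the 11838 tested genes with a window. It was in 91 of 181 windows (50.3%) of the genes whose arrays were all higher without Dscr-1, in 83 of 158 (52.5%) of those all lower, and in 6 of 15 (40.0%) of the genes that passed with trend and robust variance. CACGTG, the E-box bound by clock factors, was in 7.96% of all windows, in 25 of 181 (13.8%) of the higher and in 11 of 158 (6.96%) of the lower set. AGGTCA, the core bound by nuclear receptors, was in 11.9%, 10.5% and 9.49% of the same windows. In the windows of the genes that passed with trend and robust variance, CACGTG was in 2 of 15 (13.3%) and AGGTCA in 4 of 15 (26.7%). Both strands were searched, and these shares are a description of letters in windows with no test.

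Usp2, a deubiquitinase whose transcript cycles with the circadian clock in liver, was higher by a factor of 1.74. Signals were 507.9 and 532 on the WT and 451.2 and 421.3 on the ApoE null arrays, against 711.2 and 932.6 on the Dscr-1 null and 841 and 849.1 on the double null arrays. The groups lay well apart, with a difference of 0.78 ± 0.24 (SE; adjusted p = 0.756 and 0.0387 with trend and robust variance), and the other probe set differed by 0.52, also without overlap. Eif4e3, a cap-binding protein of the eIF4E family, gave 114.7, 83.4, 125.8 and 88.6 on the WT and ApoE null arrays and 234.2, 200.7, 298.3 and 284.7 on the arrays lacking Dscr-1. This is a ratio of 2.47 and a difference of 1.18 ± 0.25 (SE; adjusted p = 0.597 and 0.004 with trend and robust variance). Its other probe set differed by 0.90, also without overlap. Lpin1, Usp2, Eif4e3 and Calr were the 4 of the 221 higher genes whose probe sets above the filter, 2 each and 3 for Calr, all separated the groups. Several probe sets were available for 121 of the 221, and 10 had at least 2 that did so. None of the 74 lower genes with several probe sets had 2 that did so.

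**Figure D2:**
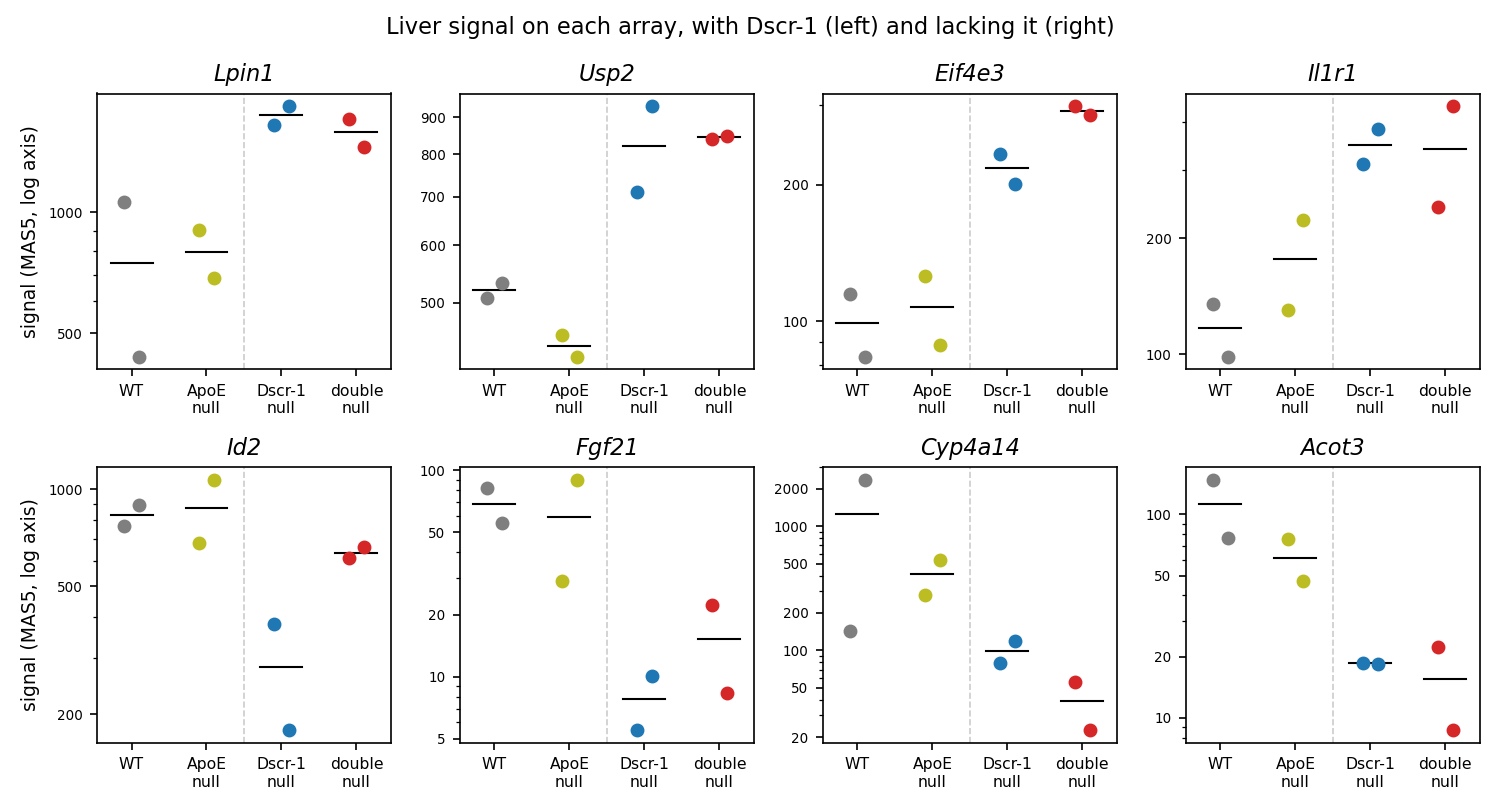
MAS5 signal on a log axis for 8 genes, with 1 point per liver array and a bar at the mean of each genotype; genotypes with Dscr-1 are left of the dashed line and those lacking it right. In all 8 panels the 4 arrays lacking Dscr-1 lie beyond the 4 with it.

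Metabolic genes of hepatocytes were among those that passed with trend and robust variance. Alas1, the rate-limiting enzyme of heme synthesis, gave 2823.4 and 1692.8 on the WT, 2491.3 and 1951 on the ApoE null, 4234.7 and 2816.2 on the Dscr-1 null and 4437 and 3823.9 on the double null arrays. A single WT array reached the level of a Dscr-1 null array, so the groups overlapped slightly, and the difference was 0.78 ± 0.28 (SE; adjusted p = 0.807 and 0.0031 with trend and robust variance). G6pc, glucose-6-phosphatase of gluconeogenesis, gave 2074.5 and 1063.9, then 984 and 1100.4, then 1470.6 and 2555.7, then 2513.9 and 2429.8 in the same order. Its difference of 0.81 ± 0.34 (SE; adjusted p = 0.855 and 0.00409 with trend and robust variance) was 0.38 in ApoE-intact and 1.24 in ApoE null liver. Serpina12, which encodes the adipokine vaspin, was higher by 0.78, and Nfic, a transcription factor, by 0.76. The other, dimmer probe sets of Nfic differed by -0.44 to 0.2. Of the 17 genes of gluconeogenesis and insulin response tested, 13 were higher and 4 lower with a median of 0.09, against 7332 higher, 7426 lower and a median of 0 over all genes. G6pc alone reached an unadjusted p of 0.05, as did 4.53% of all genes, and the median was 0.03 without Dscr-1 null replicate 2. Foxo1 (0.60), Foxo3 (0.45) and Pck1 (0.42), which encode regulators and an enzyme of glucose output, were higher but did not pass.

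Cyp4a14 and Fgf21, both PPAR-alpha targets, were among the genes lower without Dscr-1, with no overlap. Cyp4a14, an omega-hydroxylase of fatty acids, gave 144 and 2380.8 on the WT, 280.1 and 538 on the ApoE null, 79.5 and 119.8 on the Dscr-1 null and 55.6 and 22.7 on the double null arrays. The WT arrays lay far apart, and the difference of -2.69 ± 0.73 (SE; adjusted p = 0.71) ran from -3.52 without WT replicate 1 to -1.96 without WT replicate 2. Fgf21, the fasting hormone of liver, gave 82.3, 55.4, 29.2 and 90.3 with Dscr-1 and 5.5, 10.1, 22.3 and 8.3 without it. Its difference was -1.50 ± 0.35 (SE; adjusted p = 0.656), at -1.82 in ApoE-intact and -1.18 in ApoE null liver. Acot3, a peroxisomal acyl-CoA thioesterase that was listed among the female-biased liver genes and not among the PPAR-alpha targets, gave 148.3, 76.4, 75.3 and 47 with and 18.7, 18.5, 22.2 and 8.7 without Dscr-1. This difference was -1.57 ± 0.31 (SE; adjusted p = 0.589), a ratio of 0.196, and its probe set is of a type that can detect several related transcripts. Acot3 was above the array median only on arrays with Dscr-1, so it passed the filter through the group in which it was high.

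Other genes of the pathway had smaller differences. Of 22 genes of fatty acid oxidation and PPAR-alpha targets tested, 7 were higher and 15 lower, with a median of -0.07 that ran from -0.12 to 0 with single arrays left out. Fgf21 and Cyp4a14 were the 2 at an unadjusted p of 0.05, both lower, where 2.3% of all genes were lower. Fgf21 was above the array median only on arrays with Dscr-1, so it passed the filter through the group in which it was high. Ehhadh, the bifunctional enzyme of peroxisomal beta-oxidation, was between 1793.7 and 3260.7 with and between 1252.4 and 2227 without Dscr-1 (-0.55, adjusted p = 0.867), with overlap. Ppara itself was at 0.48, Cpt1a, which carries fatty acids into mitochondria, at -0.06, and Pdk4, which limits glucose oxidation, at 0.05, and none passed. Lipid droplet genes had a median of 0.04 over 15 genes. Plin5, a droplet coat protein of oxidative tissues, gave 570.9, 631.9, 572 and 580.5 with and 729.7, 884.1, 727.3 and 855.1 without Dscr-1, with no overlap (0.43, adjusted p = 0.918), but its other probe set differed by 0.03. Plin4 of the same family was higher by 0.93 (limma adjusted p = 0.837) with overlap. Among 23 genes of fatty acid and triglyceride synthesis, 9 were higher and 14 lower with a median of -0.06, and Lpin1 was the single member at an unadjusted p of 0.05.

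Il1r1, the receptor of interleukin-1, was the inflammatory list's call with trend and robust variance, while Cxcl2 and Casp1 had larger differences. It gave 135.4 and 98.6 on the WT and 130.5 and 222.4 on the ApoE null arrays, against 311.5 and 385.1 on the Dscr-1 null and 241.7 and 440.5 on the double null arrays. The groups did not overlap, and the difference was 1.17 ± 0.31 (SE; adjusted p = 0.694 and 8.44e-04 with trend and robust variance). The other probe set of Il1r1, dim and under the filter, was at -0.77. Cxcl2, a chemokine for neutrophils, was dim with Dscr-1, at 4.9, 22.7, 7.7 and 5.3, and gave 58.4, 52.6, 52.8 and 33.4 without it. Its difference was 1.35 ± 0.28 (SE; adjusted p = 0.589), also without overlap. Casp1, the protease that matures interleukin-1, was at 6.9 to 31.2 with and 17.2 to 93.1 without Dscr-1, with overlap (1.3). Ccl12, a monocyte chemokine, was at 3.2 to 7.2 with and 4.9 to 45.9 without (1.09), with overlap through Dscr-1 null replicate 2. Of the 30 inflammatory cytokine and chemokine genes tested, 19 were higher and 11 lower with a median of 0.18. Il1r1, Cxcl2, Casp1 and Ccl12 were the members at an unadjusted p of 0.05, where 2.24% of all genes were higher. Cxcl2, Casp1 and Ccl12 were above the array median only on arrays lacking Dscr-1. They passed the filter through the group in which they were high, so this count cannot be set against that share. The median was -0.06 without double null replicate 1 and 0.13 without ApoE null replicate 1. Tnf (-0.51), Il1a (-0.45) and Ccl2 (-0.23) were lower and Il1b (0.52) higher, and none of them passed.

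Macrophage transcripts were uneven across the genotypes. The summed signal of 27 macrophage and Kupffer cell markers was 7522 to 19097 with and 7806 to 27898 without Dscr-1, and the highest sums were those of both double null arrays and of ApoE null replicate 1. Of the 27 genes, 22 were higher with a median of 0.25, but the median was -0.03 in ApoE-intact and 0.52 in ApoE null liver, with 13 and 25 genes higher. The overall median was 0.28, with 21 genes higher, without ApoE null replicate 1, and 0.08 without double null replicate 1. Marco, a scavenger receptor, was the single member at an unadjusted p of 0.05 (1.04, or 0.59 without WT replicate 2). The defining markers Csf1r (0.40), Cd68 (0.67), Lyz2 (0.25), Clec4f (-0.08) and Adgre1 (-0.20) did not pass and overlapped. MHC class II genes had medians of -0.03 and 0.58 in the same split, with 10 of 13 higher over all and a median of 0.26 that was 0.04 without double null replicate 1. The part of macrophage content in the inflammatory differences was not tested.

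Other blood cell and acute phase genes gave small shifts. Neutrophil markers summed to 283 to 604 with and 413 to 705 without Dscr-1, with 7 of 10 genes higher and a median of 0.25 that was 0.65 without ApoE null replicate 1. Csf3r, the receptor of granulocyte colony-stimulating factor, was at 1.10. Lymphocyte markers were higher in 9 and lower in 5 of 14 genes, with a median of 0.15 that was -0.12 without WT replicate 1. Cd79b, a subunit of the B cell receptor, was lower on all 4 arrays lacking Dscr-1 (2.2 to 22.4 against 28 to 67.8, a difference of -1.09). It was above the array median only on arrays with Dscr-1, so it passed the filter through the group in which it was high. Its partner subunit Cd79a went the other way (0.64), with overlap. Acute phase genes were higher in 16 of 23 with a median of 0.14, which was -0.01 without Dscr-1 null replicate 2 and 0.04 without ApoE null replicate 1. Ceruloplasmin (Cp) gave 13833.8, 18590.6, 18697.3 and 19352.5 with and 20825.1, 20349.2, 23146.5 and 21622 without Dscr-1 (0.30), with no overlap. Its other probe sets differed by -1.06 (a dim one) to 0.41. Saa1 and Saa2, the serum amyloid genes, varied more than the groups differed: Saa1 ran from 686.5 to 8657.8 with and from 1495 to 11724.1 without Dscr-1. Lcn2, a siderophore-binding protein of the acute phase, was at 6.5 and 53.8 in WT liver, at 66.9 and 228.5 without Dscr-1, at 532.9 and 308.8 without ApoE and at 812.1 and 458.8 without either (1.21, with an adjusted p = 0.022 under trend and robust variance). Interferon response genes were higher in 10 and lower in 14 with a median of -0.09 (-0.19 to 0.02 with single arrays left out), and Irf1, the interferon regulatory factor, was at -0.16.

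**Figure D3:**
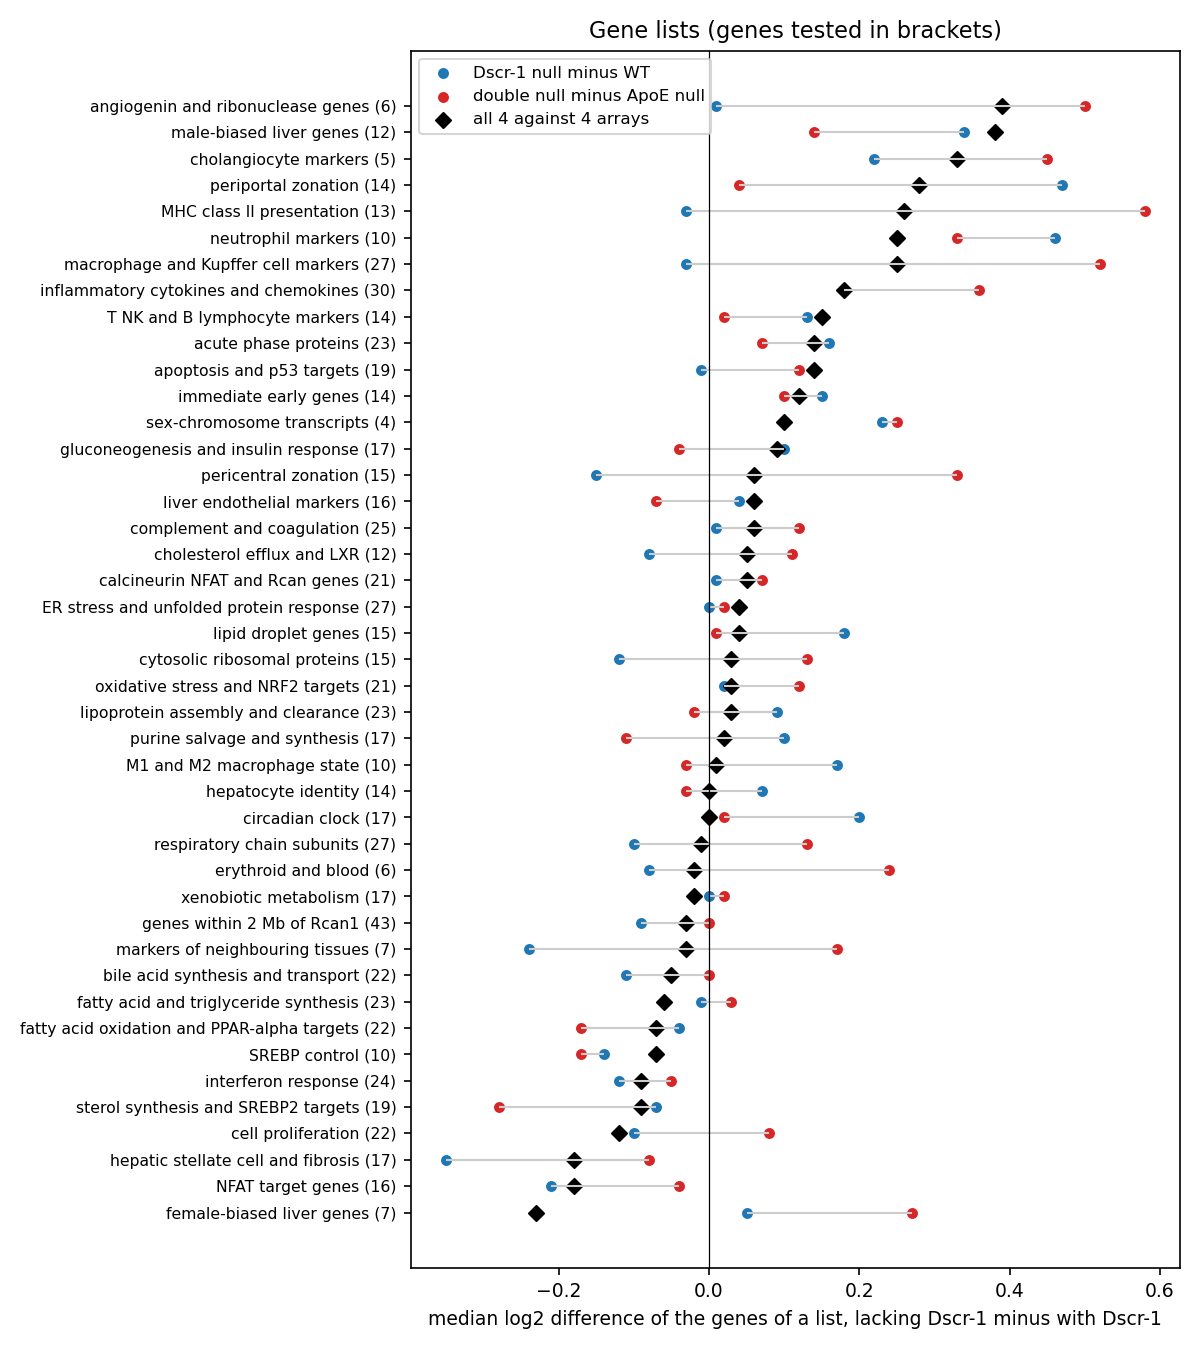
Median log2 difference, lacking minus with Dscr-1, of the genes tested in each of 43 gene lists; diamonds are the 4 against 4 comparison, blue points Dscr-1 null minus WT and red points double null minus ApoE null. Macrophage and MHC class II lists have blue points at -0.03 and red points at 0.52 and 0.58.

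Sterol synthesis genes were split between the directions. Of 19 genes of sterol synthesis and SREBP2 targets, 7 were higher and 12 lower, with a median of -0.09 that ran from -0.26 without ApoE null replicate 1 to 0.03 without ApoE null replicate 2. Mvd, which makes isopentenyl diphosphate, was the single member at an unadjusted p of 0.05. It gave 43.3, 40.7, 62.6 and 80.2 with and 36.6, 17.2, 35.4 and 26.4 without Dscr-1, a difference of -0.68 ± 0.27 (SE; adjusted p = 0.833), while the other, dim probe set differed by 0. Hmgcs1, the synthase upstream of mevalonate, was at 0.08, Sqle at -0.45 and Msmo1 at -0.72, each within the spread of the arrays. Srebf2, which encodes SREBP2, gave 93.7, 149, 127.3 and 138.4 with and 69.6, 106.5, 171.4 and 60.9 without Dscr-1 (-0.35 ± 0.34, SE; adjusted p = 0.991). The split by ApoE gave medians of -0.07 in ApoE-intact and -0.28 in ApoE null liver. These are transcript levels, and cleavage of SREBP2 protein is not measured by them. Genes of lipoprotein assembly and clearance had a median of 0.03 over 23 genes with 0 at an unadjusted p of 0.05, and those of bile acid synthesis and transport a median of -0.05 over 22. Slc10a2, the bile acid importer of ileum and bile ducts, was dim and gave 6.7, 2, 2.8 and 16.1 with and 80.4, 44.8, 47.4 and 33.2 without Dscr-1 (1.55 ± 0.32, SE; adjusted p = 0.589). It was above the array median only on arrays lacking Dscr-1, so it passed the filter through that group.

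Stress genes were likewise split. The unfolded protein response list held 17 higher and 10 lower genes with a median of 0.04. Asns, asparagine synthetase of the ATF4 response, was lower (-0.82, limma adjusted p = 0.859), while Creld2 (0.74), Ddit3 (0.63) and Ppp1r15a (0.63) were higher without passing. Xbp1 (0.03), Atf4 (-0.09) and Atf6 (-0.04), which encode the transcription factors of the branches of the response, had differences so small that their sign turned with single arrays or with the averaging of probe sets. Calr, the calcium-binding chaperone calreticulin, gave 6701.3, 7499.2, 7353.1 and 7099.9 with and 8060.3, 8535.9, 8583 and 8378.7 without Dscr-1 (0.23), with no overlap, but after quantile normalization the groups did overlap. Oxidative stress and NRF2 targets had 12 higher and 9 lower genes and a median of 0.03, with Nqo1 at 0.39 and Gsta2 at -0.51, neither of which passed.

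Calcineurin and NFAT genes gave no call. Of 21 tested genes of this pathway, 13 were higher and 8 lower with a median of 0.05, and 0 reached an unadjusted p of 0.05. Ppp3r1, the regulatory subunit of calcineurin, was at -0.46, and Rcan3, a relative of Rcan1, at -0.60. Nfatc1 was at -0.22 and Nfatc2 at 0.33, and the sign of both turned when all probe sets of the gene were averaged. Cib1, a calcium- and integrin-binding protein, gave 635.4 to 759.7 with and 768.6 to 924.2 without Dscr-1 (0.25), without overlap until quantile normalization. NFAT target genes had 7 higher and 9 lower of 16 and a median of -0.18, which was -0.37 without ApoE null replicate 1 and 0.08 without WT replicate 2. Egr2, an early growth response factor, was higher (0.95, limma adjusted p = 0.798), at 2.1 to 10.8 with and 6.5 to 40.9 without Dscr-1. Nr4a3, an orphan nuclear receptor, was lower (-0.68, limma adjusted p = 0.833), at 15 to 45.4 with and 8.9 to 12.7 without. Both are dim and passed the filter through the group in which they were high. Egr2 was above the array median only on the Dscr-1 null arrays, and Nr4a3 only on the WT arrays. NFAT targets of T cells such as Il2, Ifng and Cd40lg, at 0.05, 0.43 and -0.24, did not pass.

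For several genes that passed with trend and robust variance the difference was larger in ApoE-intact than in ApoE null liver, though not beyond the spread after adjustment. Nat8f5, an acetyltransferase, was at 73.3 and 18 in WT liver, at 331.4 and 250.2 without Dscr-1, at 348.1 and 191.3 without ApoE and at 278.3 and 415.5 without either. Its difference was 2.46 in ApoE-intact and 0.38 in ApoE null liver. Bcl7c, a subunit of chromatin remodelling complexes, was at 41 and 13.5 in WT and 147.3 to 237.5 on the other 6 arrays (2.22 and 0.05), while its 3 other, dimmer probe sets differed by -0.24 to 0.39. Ugt2b38, a glucuronosyltransferase, gave 90.3 and 132 in WT and 319.6 to 844.9 elsewhere (1.87 and 0.37). Fam214a gave 189.3 and 267.9 in WT and 791.3 and 805.3 in Dscr-1 null liver, against 351.1 and 408.5 without ApoE and 426.1 and 447.1 without either gene (1.75 and 0.20). For these 4 genes the WT arrays were the low ones. The test of that gap, the interaction of the genotypes, passed an adjusted p of 0.05 for 0 genes (0%) and an unadjusted p of 0.05 for 634 genes (4.3%), with Bcl7c, Fam214a and Nat8f5 among the latter.

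The same shape was extreme for Ang, angiogenin, a secreted ribonuclease. Its signal was 82.7 and 93.3 on the WT arrays, 8448.9 and 22375.2 on the Dscr-1 null arrays, 14582.4 and 20313.8 on the ApoE null arrays and 20982.3 and 22270.3 on the double null arrays. On this probe set both WT arrays thus lay far below the other 6, and the averaged difference of 3.69 was made of 7.05 in ApoE-intact and 0.33 in ApoE null liver. The interaction had an adjusted p = 0.461 in limma. The probe sets of Ang disagreed: a dimmer one also set WT apart, at 347 and 394.2 against 1773.8 to 5268.1, whereas the third gave 1067.1 and 815.8 in WT and 542.2 to 1315.6 on the other 6 arrays, a difference of 0.04. Rnase4, which shares its locus with Ang, was at -0.06. A2ml1 (3.14 and 0.31) and Fam25c (3.42 and 0.70) had the same order of genotypes, and Ctse, the protease cathepsin E, had the reverse, with 744.8 and 1070.1 in WT and 15.9 to 86.6 on the other 6 arrays. Hprt, of purine salvage, was low on 3 arrays of both groups, at 46.9 and 54.8 in WT and 65.9 on Dscr-1 null replicate 2, and 819.7 to 1018.7 on the other 5. Such genes separate single genotypes or arrays and not the arrays lacking Dscr-1 from those with it.

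The genes that passed with trend and robust variance and were lower were Id2, E2f5 and Hpgd. Id2, an inhibitor of basic helix-loop-helix factors, gave 770.7, 894.6, 682.1 and 1071.7 with Dscr-1, 380.9 and 178.6 in Dscr-1 null and 610.1 and 661.1 in double null liver, with no overlap. Its difference was -1.01 ± 0.36 (SE; adjusted p = 0.795 and 4.82e-04 with trend and robust variance), at -1.61 in ApoE-intact and -0.42 in ApoE null liver. Hpgd, which inactivates prostaglandins, was at 569.2 to 1453.8 with and 244.8 to 537.2 without Dscr-1 (-0.78), and E2f5, a factor of the E2F family, at 328.5 to 587.9 and 123.6 to 340.3 (-0.85). The 2 other probe sets of E2f5 pointed the other way, at 0.39 and 0.37, and the other probe set of Hpgd was at -0.19. Sfpq, a splicing factor, was higher by 1.14 with no overlap, at 119.7 to 200.6 with and 245.4 to 545.7 without Dscr-1, but its 5 other probe sets gave -0.32 to 0.18. Ces2b, a carboxylesterase, was higher by 1.15 with wide spread in both groups. Of the 18 genes, Lpin1 was called in 13 of 15 other settings, Il1r1 and Sfpq in 11, Alas1 and Eif4e3 in 10, and the others in 3 to 9.

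The lowest p-values of all belonged to dim probe sets. Zfp169, a zinc finger gene, gave 5.1, 4.2, 6.2 and 2.7 with and 64.8, 65.1, 44.1 and 44.4 without Dscr-1, a ratio of 12 and a difference of 1.77 ± 0.23 (SE; limma adjusted p = 0.589). Sec1, a fucosyltransferase, gave 44.1, 78.7, 72.1 and 49.2 with and 2.8, 12.2, 2.5 and 2.5 without (-1.87 ± 0.28, SE; adjusted p = 0.589). In both, the high side lay near the median signal of an array and the low side far under it, so the ratio rests on signals at which MAS5 values scatter widely. Cracr2b (-1.49) and Frem1 (-1.44) had the same form. Among genes whose high side was above the array median, Ube2v2, a partner of ubiquitin-conjugating enzymes, gave 127.1, 125.1, 140.7 and 127.4 with and 57.3, 63.8, 68.6 and 76.3 without Dscr-1 (-0.83 ± 0.22, SE; adjusted p = 0.696). Mmd2 (-0.82), Rwdd3 (-0.73) and Sp4 (-0.79) were likewise lower, and Klra2 (0.88), Obp2a (1.17) and Srfbp1 (1.16) higher, on all 4 arrays. Other probe sets differed by -0.5 to 0.52 for Ube2v2, -0.61 to 0.38 for Mmd2, Rwdd3 and Sp4, and -0.26 for Srfbp1. Over the 221 higher and 198 lower genes, the median size of the difference was 0.63 and 0.80, against 0.22 over all genes. A larger size follows from their selection by non-overlap in these same values. Of them, 124 and 75 were above the array median on all 8 arrays, as were 7128 of all 14758 genes. Bright genes without overlap included Ifi35 (0.58), an interferon-induced protein, and Zbtb20 (0.55), a liver repressor. Their other probe sets were at 0.22 and -0.02 for Ifi35 and from -0.27 to 0.59 for Zbtb20. Ptprf (0.63), a receptor phosphatase, was also among them, while its 2 other probe sets were at 0.07 and 0.

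The split by ApoE genotype compared pairs that share no array: Dscr-1 null with WT, and double null with ApoE null. Across the 14758 genes the differences of the split correlated at Pearson's r = 0.011 and Spearman's rho = 0.02, and had the same sign for 51.5%. Genes are not independent replicates, and these values are a description. Among the 7128 genes above the array median on all 8 arrays, r was 0.078 and 53.6% had the same sign. A difference over 1 was found for 550 genes in ApoE-intact and 732 in ApoE null liver, and 47 were shared, 8.55% of the first and 6.42% of the latter. The background of these shares is 732 and 550 of all 14758 genes. Below -1 there were 538 and 692 genes with 68 shared, 12.6% and 9.83%, against a background of 692 and 538 of all 14758. Among the 7128 brighter genes, 48 and 31 were over 1 with 2 shared, and 21 and 25 were below -1 with 0 shared. Dim genes that passed the filter through the arrays of 1 group count among the 14758, so the shares over all genes are a description. Eif4e3, Cxcl2, Cyp4a14, Fgf21 and Acot3 lay beyond 1 in both, and Lpin1 reached 1.33 and 0.99. Of these, Cxcl2, Fgf21 and Acot3 passed the filter only through the group in which they were high.

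**Figure D4:**
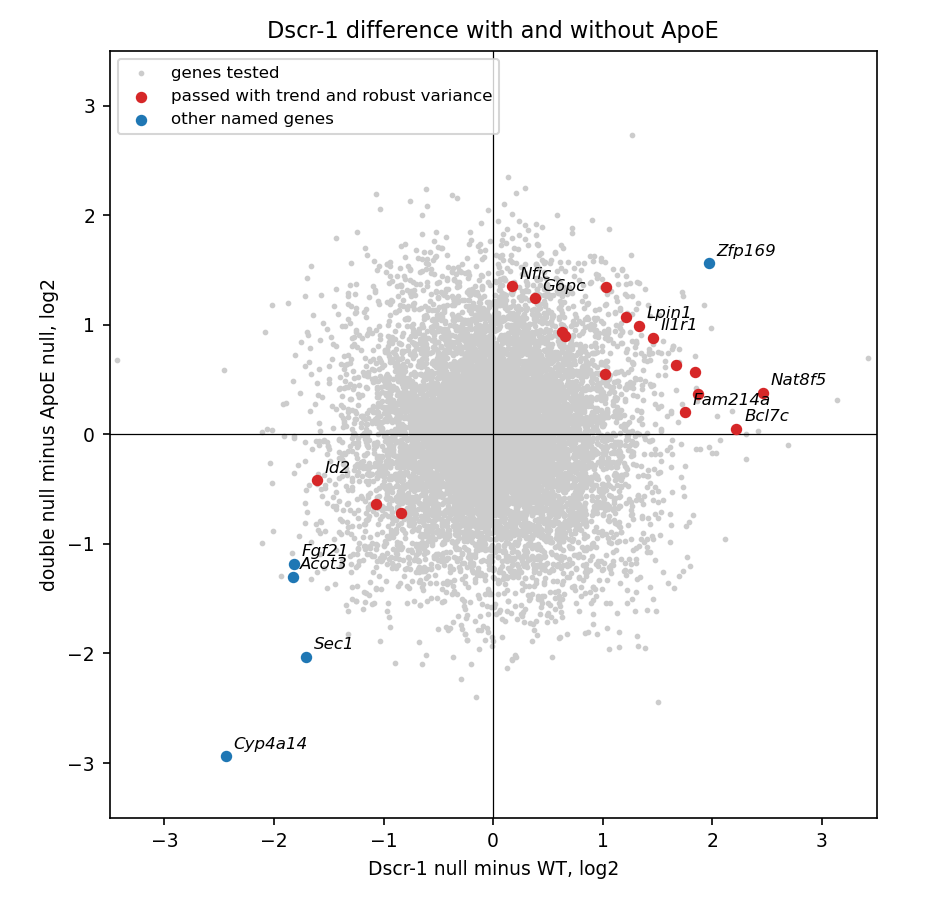
Log2 difference of each tested gene in ApoE-intact liver (Dscr-1 null minus WT, x axis) against that in ApoE null liver (double null minus ApoE null, y axis), with red points for the 18 genes that passed with trend and robust variance and blue points for other named genes; 2 genes lie beyond the axes at 3.5. The cloud is round (r = 0.011), with Cyp4a14, Sec1, Fgf21 and Acot3 at the lower left and Zfp169, Lpin1 and Il1r1 at the upper right.

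Among the remaining lists, the clock genes held Usp2 but had a median of 0 over 17 genes. Tef, an output factor of the clock, gave 914.1 to 1102.8 with and 1128.7 to 1352 without Dscr-1 (0.28), without overlap until quantile normalization. The core clock genes Arntl (-0.17), Per2 (-0.33) and Nr1d1 (-0.54) did not pass. Male-biased liver genes were higher in 11 of 12 with a median of 0.38 that was 0.17 without WT replicate 1, of which Serpina4-ps1 (0.95), Ces4a (0.55) and Cyp7b1 (0.54) were highest, and 0 reached an unadjusted p of 0.05. Periportal genes had a median of 0.28 over 14, or 0.14 without WT replicate 2, with Sult5a1, a sulfotransferase, higher on all 4 arrays (0.74). The 14 hepatocyte identity genes were even, with 7 higher and a median of 0, and their summed signal was 185442 to 250945 with and 197104 to 205551 without Dscr-1. Stellate cell and fibrosis genes had a median of -0.18 over 17 genes, or 0.01 without WT replicate 1, and proliferation genes a median of -0.12 over 22, or 0.04 without ApoE null replicate 1, among which Mcm6, of the replicative helicase, was higher by 0.96.

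Genes beside Rcan1 were examined as the surroundings of the targeted allele. Of the 51 named genes within 2 Mb, 43 were tested, with 20 higher and 23 lower and a median of -0.03. Olig1, a factor of oligodendrocytes, was the lowest (-1.49, limma adjusted p = 0.724), at 6 to 166.6 with and 3.5 to 21.4 without Dscr-1. The uncharacterised 4932438H23Rik (-1.0) was dim and Pigp, of glycosylphosphatidylinositol synthesis, was at -0.35, and both were lower on all 4 arrays. Olig1 and 4932438H23Rik were above the array median only on arrays with Dscr-1, so they passed the filter through that group. Of Rcan1's neighbours Itsn1, Son and Gart, none passed, at 0.44, 0.33 and 0.29.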

How the data were processed

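Total RNA of whole liver was labelled as biotinylated cRNA and hybridised to Affymetrix mouse genome arrays. The authors computed MAS5 signal intensity in GCOS, scaled to a trimmed mean of 100; the 8 liver columns of the deposited table hold this intensity, and the 4 aortic columns hold deposited log2 values and were not used. Of 45037 probe sets left after 64 controls, 34945 matched 1 gene, 932 several and 9160 none. Signals were taken as log2(signal + 16), and probe sets above the array median on at least 2 of 8 arrays were kept (32005). A gene was read from the brightest of all its probe sets and tested if that one was kept (14758 genes). The linear model of limma 3.58.1 (R 4.3.3) held Dscr-1 and ApoE genotype over all 8 arrays, with Benjamini-Hochberg adjustment over the probe sets kept, 5 residual and 8.85 total degrees of freedom. A mean per genotype gave the interaction.

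The number of arrays limits the precision. Alternatives were offsets of 1 and 64, quantile normalization, other filters, the mean of the probe sets, trend and robust variance, the replicate number as a block, and leaving out each array. Named genes were Rcan1 and Apoe, the 10 lowest p-values per direction, up to 10 per direction with the largest gap between groups, up to 4 per list by p, genes the study ties to liver and the neighbours of Rcan1. The genes that passed with trend and robust variance, and Calr, Tef, Zbtb20, Ifi35, Ptprf, Fam25c, A2ml1, Ctse, Saa1, Saa2, Cpt1a, Pdk4, Hprt, Alb, Ttr, Apoa1, Eif2s3y, Xist, Lyz2 and other list members, were named after their values were seen. The comparison and the gene lists were chosen with earlier results of these data known. The model was tested on simulated data. Same-numbered arrays of different genotypes were not paired: the correlations of their deviations were -0.000374 to 0.0312. Cyp4a10 and Itgam were under the filter and not tested.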

Additional observations from a re-analysis of the deposited data

Results flagged for a closer look

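Among 174 sets of 4 arrays, each gene's arrays with and without Dscr-1 taken apart, 17 held an array whose gap to its nearest neighbour took most of the range of the 4. The cut, Dixon's rule on the log2 scale, is passed by about 1 in 20 sets of 4 independent normal values from 1 population. These sets mix ApoE genotypes and come from genes named partly by their values. The 17 of 174 therefore cannot be set against that rate. In G6pc, WT replicate 1 was at 2074.5 against 984.0 to 1100.4 on the other arrays with Dscr-1, and Dscr-1 null replicate 1 was at 1470.6 against 2429.8 to 2555.7. In Hpgd, WT replicate 1 was at 1453.8 against 569.2 to 621.7, and double null replicate 2 at 244.8 against 508.8 to 537.2. For Ang, Dscr-1 null replicate 1 was at 8448.9 against 20982.3 to 22375.2 on the other arrays lacking Dscr-1.

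Dscr-1 null replicate 2 stood apart for Ccl12 (4.9 against 37.0 to 45.9), Nfatc2 (33.5 against 71.6 to 82.3) and Sec1 (12.2 against 2.5 to 2.8). ApoE null replicate 2 stood apart for Adipoq (14.3 against 1.8 to 3.3), Mcm6 (70.4 against 23.9 to 27.0) and Obp2a (3.9 against 29.4 to 35.7), and Obp2a also had double null replicate 1 at 105.7 against 60.7 to 65.6. ApoE null replicate 1 stood apart for Sp4 (149.5 against 57.5 to 64.7), for Ube2v2 (140.7 against 125.1 to 127.4) and in its mean correlation with the other liver arrays (0.839 against 0.878 to 0.883 of the arrays with Dscr-1). Double null replicate 2 was at 3.3 for Cftr against 35.5 to 39.8, and WT replicate 2 at 156.6 for Ocel1 against 72.2 to 77.5.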

How the results depend on the processing

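The planned changes of offset, filter, scaling, probe set averaging and arrays gave 0 genes at an adjusted p of 0.05, as did the replicate number as a block (0 genes; 683 at an unadjusted p of 0.05), where same-numbered arrays did not vary together. Trend variance alone gave 12, trend and robust variance 18, and the 2-fold criterion 1308 with no test. The 18 became 5 with an offset of 1 (all higher), 9 after quantile normalization (8 higher), 5 without a filter, 0 with a filter on 4 arrays and 0 with probe sets averaged; leaving out single arrays gave 7 to 60. It was 7 without Dscr-1 null replicate 1 or 2, 9 without double null replicate 2, 30 without ApoE null replicate 2 and 60 (35 higher, 25 lower) without ApoE null replicate 1. Genes without overlap numbered 361 to 524 higher and 344 to 528 lower when an array was left out, since fewer arrays overlap less. Of 1761 values of 85 genes in 21 settings, 13 changed sign, those of Xbp1, Atf4, Atf6, Nfatc1 and Nfatc2. Xbp1 was -0.01 after quantile normalization, -0.05 with probe sets averaged and -0.09 to 0.17 with an array left out; Atf4 was 0.11 averaged and -0.2 to 0.02; Atf6 was -0.2 to 0.09; Nfatc1 went from -0.22 to 0.20 and Nfatc2 from 0.33 to -0.41 averaged. Apart from the counts by scaling, the cause was not tested. With 2 mice per genotype, dim signals and an array that stands apart, differences under the spread of the arrays cannot be told from 0.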

Other observations

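Genes whose arrays did not overlap were unevenly split by signal level. At a mean log2(signal + 16) of 10 and above, 31 genes were higher and 1 lower without Dscr-1 among 990, whereas under 7 there were 117 higher and 139 lower among 9043. After quantile normalization the bright set held 18 higher and 12 lower genes among 991, and without ApoE null replicate 1 it held 50 and 52 among 998. Of the 221 higher and 198 lower genes, 160 and 157 still did not overlap after quantile normalization; Calr, Cd79b, Cib1, Ifitm3, Mcm6 and Tef were the named genes that then did.

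Markers of tissues beside the liver gave dim signals in both directions. Adipoq, the adipocyte hormone adiponectin, was at 1.8 to 14.3 with and 16.1 to 65.4 without Dscr-1 (1.26), and Ckm, the creatine kinase of muscle, at 12.8 to 52.5 with and 2.1 to 10.7 without (-1.26). Cftr, the chloride channel of the bile ducts within liver, was at 1.7 to 4.8 with and 3.3 to 39.8 without (1.10). Its other probe set, under the filter, was at -0.14. Adipoq and Cftr were above the array median only on arrays lacking Dscr-1, and Ckm only on arrays with it. Each passed the filter through the group in which it was high. Of 5 cholangiocyte markers tested, 3 were higher and 2 lower, with Sox9 at -0.68 and Krt7 at -0.23. Moxd1, a monooxygenase-like protein, ranged from 24.3 to 382.9 with and from 75.4 to 2401.2 without Dscr-1 (2.0), with 1005.5 and 2401.2 on replicate 2 of both genotypes lacking Dscr-1.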
